A study of Mus musculus with 11 samples.

Results

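The 10 imprinted genes *H19*, *Igf2*, *Igf2r*, *Peg3*, *Mest*, *Snrpn*, *Plagl1*, *Grb10*, *Peg10* and *Nnat* were taken by name from the 37273 genes of the mouse GENCODE vM1 annotation (genome build mm9), of which 22367 are protein-coding. For each gene, histone variant ChIP-Seq was read within 600 bp either side of the transcription start site (TSS) at the 5′ end of its record, over its gene body, and in 1 kb windows across the body and 50 kb to either side. Levels are distinct interval midpoints scaled to 1000000 distinct intervals in each library (p.p.m.), and the bars and ranges given with them are exact Poisson 95% intervals, which cover counting error only.

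The 11 libraries came from 129 X C57bl/6 mouse cells. For 9 of them these were cells of the KH2 system, in which doxycycline (Dox, 2 µg/ml) switches on an HA-tagged histone variant from 1 site downstream of *Col1a1*, and the HA-tagged protein is made beside the endogenous one. HA-H3.3 was mapped in embryonic stem (ES) cells after 3 h and 6 h of Dox, with an antibody against the HA tag. HA-MacroH2A2 (HA-Macro) was mapped with the same antibody in ES cells without Dox and after 3, 6 and 12 h, and in mouse embryonic fibroblasts (MEFs) after 3, 6 and 12 h. Those MEFs were grown from embryos made by blastocyst injection of the HA-Macro ES cells and were used at passage 2. An antibody against MacroH2A2 itself (anti-MacroH2A2) gave 1 library from parental KH2 ES cells and 1 from wild type MEFs, by label untreated, and by label each of these 2 libraries combines 2 replicates. The study's text and legends name HA-Macro cells, with or without Dox, for anti-MacroH2A2 maps, and the labels were followed here. ES cells were depleted of their MEF feeders before induction.

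Each condition had 1 library, so no comparison here has a replicate check, and none carries a p-value. The libraries held 6488112 to 20541627 intervals, of which 6448310 to 19869559 were distinct, so that 3 midpoints correspond to 0.151 to 0.465 p.p.m., and single genes were read from few midpoints. Intervals were 400 bp long for HA-H3.3 and anti-MacroH2A2 but 150 bp for HA-Macro, and a ratio between antibodies is not a ratio of protein amounts. The HA-Macro ES 3 h library stood apart from the other 6 HA-Macro libraries: chromosome Y took 0.111% of its distinct intervals, against 0.0198% to 0.0244% in those 6. The other 4 libraries had 0.0423% to 0.102%. Counts at the TSS that rest on it are also given with the 6 h library. ChIP carries no expression values, so the labelled cell types were not checked against marker transcripts.

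Imprinted genes are expressed from the allele of 1 parent. The choice is set by differentially methylated regions that receive DNA methylation in the egg or the sperm and keep it on that parent's chromosome. The zinc finger protein ZFP57 binds the methylated form of the hexamer TGCCGC and helps to protect the methylation, and at *H19* the insulator protein CTCF binds the unmethylated maternal copy of the control region. H3.3 is the histone H3 variant laid down outside DNA replication, at active promoters, regulatory elements and some silent regions. MacroH2A2 is an H2A variant with a large globular domain, and MacroH2A proteins have been described on imprinted loci and on the inactive X chromosome. The deposited intervals carry no allele, so each level below is the sum of both parental copies.

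Stretches that hold the hexamer or the CTCF core are printed here, chosen for those letters. All are mm9, plus strand, 5′ to 3′. The letters CGNGGNGGC, taken as the CTCF core and searched on both strands, occurred 2168, 2623 and 3893 bp upstream of the *H19* TSS, within the region upstream of *H19* that holds its imprinting control region. In these 3 stretches of 69 bp the capitals mark the match, which lies on the minus strand:

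H19 chr7:149766186-149766254: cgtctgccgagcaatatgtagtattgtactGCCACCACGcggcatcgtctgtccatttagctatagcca
H19 chr7:149766641-149766709: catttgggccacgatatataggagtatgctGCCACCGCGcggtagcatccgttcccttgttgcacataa
H19 chr7:149767911-149767979: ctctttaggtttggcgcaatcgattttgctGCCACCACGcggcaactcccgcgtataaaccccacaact

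In the next 6 stretches of 200 bp the capitals mark TGCCGC on either strand (GCGGCA where the match is on the minus strand). Each was taken from an H3.3-rich 1 kb window of its gene and lies outside annotated UTRs:

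Igf2r chr17:12935059-12935258: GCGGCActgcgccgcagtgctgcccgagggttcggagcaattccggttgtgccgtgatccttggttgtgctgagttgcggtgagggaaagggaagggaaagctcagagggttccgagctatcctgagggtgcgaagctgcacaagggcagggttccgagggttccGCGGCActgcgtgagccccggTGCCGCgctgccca
Peg3 chr7:6681984-6682183: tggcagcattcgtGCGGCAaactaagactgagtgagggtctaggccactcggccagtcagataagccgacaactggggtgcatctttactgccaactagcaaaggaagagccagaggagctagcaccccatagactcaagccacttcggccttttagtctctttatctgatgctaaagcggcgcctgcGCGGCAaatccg
Mest chr6:30687548-30687747: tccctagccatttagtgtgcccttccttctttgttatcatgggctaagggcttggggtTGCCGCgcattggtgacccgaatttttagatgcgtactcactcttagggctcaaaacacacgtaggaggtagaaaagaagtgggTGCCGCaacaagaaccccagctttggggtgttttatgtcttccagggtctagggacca
Snrpn chr7:67149575-67149774: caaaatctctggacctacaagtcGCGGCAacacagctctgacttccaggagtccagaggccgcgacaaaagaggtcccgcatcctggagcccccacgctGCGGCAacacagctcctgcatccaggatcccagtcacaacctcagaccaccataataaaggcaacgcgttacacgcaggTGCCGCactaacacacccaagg
Plagl1 chr10:12810864-12811063: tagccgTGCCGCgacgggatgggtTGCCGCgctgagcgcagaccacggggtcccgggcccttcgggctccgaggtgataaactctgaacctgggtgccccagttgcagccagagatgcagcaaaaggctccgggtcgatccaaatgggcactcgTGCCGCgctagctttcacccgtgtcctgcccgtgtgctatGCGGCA
Nnat chr2:157386002-157386201: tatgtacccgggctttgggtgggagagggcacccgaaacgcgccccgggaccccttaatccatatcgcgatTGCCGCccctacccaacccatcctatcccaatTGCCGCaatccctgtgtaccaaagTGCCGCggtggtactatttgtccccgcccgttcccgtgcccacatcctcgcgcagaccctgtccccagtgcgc

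The *Igf2r* stretch is centred 27371 bp downstream of the *Igf2r* TSS, inside the gene, near the start of the antisense RNA *Airn*. Those of *Peg3*, *Plagl1* and *Nnat* are centred 1048, 467 and 288 bp downstream of the TSS, and those of *Mest* and *Snrpn* 14101 and 135430 bp into the record. For scale, 28.4% of the TSS windows of all genes, taken 600 bp either side, held TGCCGC and 3.299% held 3 or more matches, while 22.3% held CGNGGNGGC. Among all 2557910 genomic windows of 1 kb, 5.76% held TGCCGC, 0.0877% held 3 or more, and 3.00% held CGNGGNGGC. A match describes the letters and not an occupied site.

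At the first annotated start, *Plagl1*, *Nnat*, *Peg10* and *Peg3*, all paternally expressed, had the highest HA-H3.3 levels of the 10 genes at 6 h. The order differed in other libraries, and maternally expressed *Igf2r* was above *Nnat* with anti-MacroH2A2 in both cell types. Paternally expressed *Igf2* and *Mest* had only 0.470 and 0.751 with HA-H3.3 at 6 h at this start. *Plagl1*, a zinc finger transcription factor (chr10:12810497-12851500, plus strand), had the highest HA-H3.3 level of the 10 genes at both times, 5.43 at 3 h and 8.64 at 6 h. Only 0.512% and 0.652% of all genes were at or above these levels. Anti-MacroH2A2 at *Plagl1* was 3.88 in ES cells and 3.17 in MEFs, levels that 0.327% and 0.236% of genes reached. HA-Macro there was 0.846 without Dox, then 1.87, 1.13 and 1.19 at 3, 6 and 12 h in ES cells, and 2.40, 2.76 and 2.01 in MEFs. *Plagl1* was thus high with both variants, and its HA-Macro levels in MEFs were above each of its 4 ES levels.

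*Nnat*, which encodes a small membrane proteolipid and sits inside an intron of *Blcap* (chr2:157385814-157388258, plus strand), was second for HA-H3.3, with 4.65 at 3 h and 6.86 at 6 h. Its anti-MacroH2A2 level was 2.59 in ES cells and 1.01 in MEFs. HA-Macro at *Nnat* was 1.18 without Dox and 2.83, 1.67 and 1.07 at 3, 6 and 12 h in ES cells. In MEFs the 3 levels were 1.02, 0.761 and 0.604. The 3 h ES level was the highest of the 7 HA-Macro libraries, and the no-Dox level was above that at 12 h.

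*Peg10*, a gene derived from a retrotransposon that is needed for the placenta (chr6:4697306-4710514, plus strand), had the highest anti-MacroH2A2 level in ES cells, 4.82, which 0.0912% of all genes reached. In MEFs it was 2.43. HA-H3.3 at *Peg10* was 2.64 and 3.29, and HA-Macro was 1.01 without Dox, 1.39, 1.25 and 1.24 in induced ES cells and 1.48, 1.62 and 1.76 in MEFs. *Peg3*, a large zinc finger protein gene (chr7:6656603-6683132, minus strand), had anti-MacroH2A2 levels of 3.53 in ES cells and 2.83 in MEFs. Its HA-H3.3 level was 1.55 at 3 h and 4.32 at 6 h. HA-Macro at *Peg3* was 0.677 without Dox, 1.33, 1.13 and 1.70 in induced ES cells and 1.48, 0.951 and 0.755 in MEFs.

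*Igf2r*, the maternally expressed receptor that clears IGF2 from the cell surface (chr17:12875272-12962530, minus strand), had 1.71 and 1.97 with HA-H3.3, and anti-MacroH2A2 levels of 3.06 in ES cells and 1.62 in MEFs. Its HA-Macro levels lay on both sides of the level without Dox, with 1.10 without Dox against 1.02, 1.31 and 0.848 in induced ES cells and 1.20, 1.52 and 0.906 in MEFs. *H19*, a maternally expressed noncoding RNA (chr7:149761434-149764048, minus strand), had 9 HA-H3.3 midpoints at 3 h (1.40 p.p.m.) and 2 at 6 h (0.188). Anti-MacroH2A2 at *H19* was 1.41 in ES cells and 1.01 in MEFs, and HA-Macro was 0.507 without Dox, 0.482, 0.537 and 0.565 in induced ES cells and 0.833, 0.476 and 0.705 in MEFs. The *H19* levels thus ran from 0.188 to 1.41, and the median of all genes was 0.453 to 0.845 p.p.m. over the 11 libraries.

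The other 4 genes, *Igf2*, *Mest*, *Snrpn* and *Grb10*, were read at the 5′ end of the record in the same way. *Igf2*, the paternally expressed growth factor (chr7:149836673-149852721, minus strand), ranged from 0.181 to 1.09 over the 11 libraries, and *Mest*, a paternally expressed gene of the hydrolase family (chr6:30673547-30698457, plus strand), from 0.418 to 1.65, its anti-MacroH2A2 level in ES cells. *Snrpn*, which encodes a protein of the splicing machinery (chr7:67127388-67285105, minus strand), ranged from 0 to 0.930, and *Grb10*, an adaptor that restrains insulin signaling (chr11:11830511-11938686, minus strand), from 0 to 0.740. *Snrpn* and *Grb10* had no midpoint in the HA-Macro MEF 6 h library, a count with an exact Poisson upper bound of 0.351 p.p.m. (3 midpoints are 0.285). The order of the 10 genes by anti-MacroH2A2 in ES cells was *Peg10*, *Plagl1*, *Peg3*, *Igf2r*, *Nnat*, *Mest*, *H19*, *Igf2*, *Snrpn* and *Grb10*. Each neighboring pair in this order had overlapping counting intervals.

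Over the 10 genes the median level was 2.12 with anti-MacroH2A2 in ES cells, against 0.706 over all genes, and 8 of the 10 were above that value. For HA-H3.3 the members' median was 1.47 at 3 h and 1.36 at 6 h, against 0.775 and 0.845, with 9 and 5 members above. Over protein-coding genes, which 9 of the 10 are, the median was 0.941 for anti-MacroH2A2 in ES cells and 1.24 and 1.79 for HA-H3.3, with 7, 6 and 5 members above, so the members' median at 6 h was below it. With HA-Macro in ES cells the members stood closer to all genes. Their median was 0.634 without Dox and 0.814, 0.985 and 0.848 at 3, 6 and 12 h. Over all genes it was 0.508, 0.663, 0.657 and 0.565, with 6, 5, 6 and 6 members above. In MEFs the members' HA-Macro medians were 0.971, 0.761 and 0.780, against 0.4625, 0.476 and 0.453, with 9, 7 and 8 above.

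**Figure D1:**
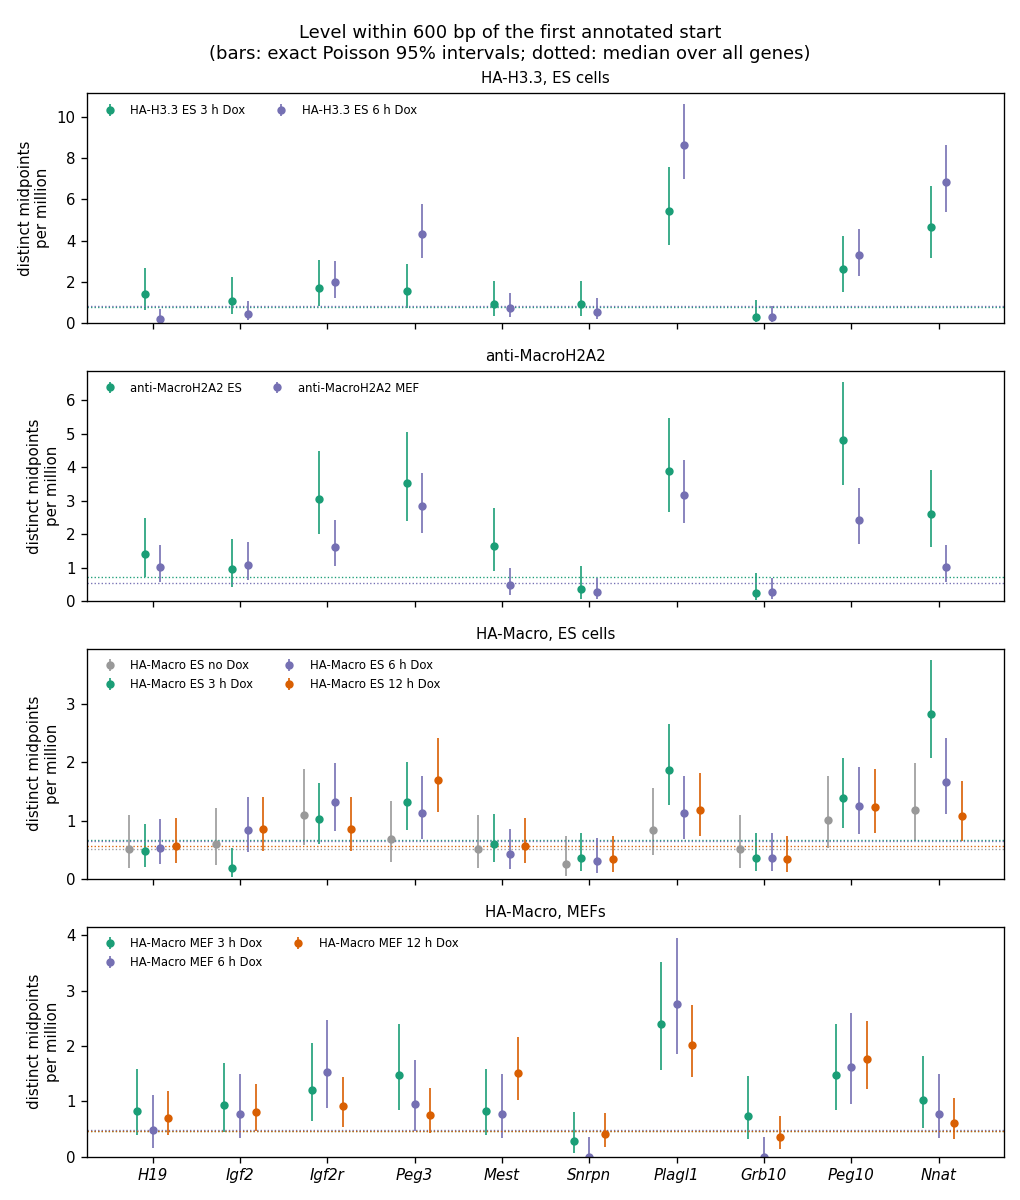
Level within 600 bp of the first annotated start of the 10 genes (x axis) in p.p.m. (y axis), in 4 panels for HA-H3.3, anti-MacroH2A2, HA-Macro in ES cells and HA-Macro in MEFs. Points are single libraries, bars are exact Poisson 95% intervals and dotted lines the median of all genes. *Plagl1*, *Nnat*, *Peg10* and *Peg3* carry the highest HA-H3.3 levels at 6 h, and *H19* the lowest, at 0.188.

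The records of *Igf2*, *Mest*, *Snrpn* and *Grb10* begin at upstream starts, and their CpG-rich promoters lie further in. Their first starts had 6, 10, 6 and 25 CpG in the TSS window, against a median of 21 over all genes, whereas the TSS windows of *Igf2r*, *Plagl1*, *Nnat*, *Peg10*, *Peg3* and *H19* had 113, 80, 79, 78, 52 and 45. All annotated starts were therefore read, and the CpG-richest start of each gene was compared in a choice made after the data were seen.

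At *Mest* the start 14.503 kb into the record held 75 CpG and 10 TGCCGC matches. HA-H3.3 there was 3.57 at 3 h and 7.23 at 6 h, anti-MacroH2A2 was 3.76 in ES cells and 2.36 in MEFs, and HA-Macro was 0.846 without Dox, 2.23, 1.91 and 1.86 in induced ES cells and 1.29, 1.52 and 1.46 in MEFs. All 3 induced ES levels were above the no-Dox level, and *Mest* joined the high group beside *Plagl1*. At *Snrpn* the start 135.063 kb into the record held 33 CpG and 6 TGCCGC matches. It had 2.33 and 4.60 with HA-H3.3, against 0.941 and 0.809 with anti-MacroH2A2 in ES cells and MEFs. HA-Macro there was 0.508 without Dox, 1.15, 0.657 and 0.735 in induced ES cells and 0.277, 0.190 and 0.151 in MEFs. This *Snrpn* start was rich in H3.3 with MacroH2A2 near the median of all genes: the ratio of HA-H3.3 at 6 h to anti-MacroH2A2 in ES cells was 4.89 (95% interval 2.30 to 12.0).

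At *Grb10* a start 12.359 kb into the record held 123 CpG and 4 TGCCGC matches. It had 7.60 and 8.27 with HA-H3.3, and 6.94 and 2.97 with anti-MacroH2A2 in ES cells and MEFs. The ES value was above that at each of the 10 first starts. This start is 1 of 9 at *Grb10*, neither the first nor the CpG-richest, so it was not chosen as those first starts were. The HA background was high at this place as well, 2.45 without Dox against 2.59, 4.24 and 2.83 in induced ES cells and 3.33, 2.66 and 2.62 in MEFs. The ratio of anti-MacroH2A2 in MEFs to ES cells was 0.428 (0.283 to 0.643). The CpG-richest *Grb10* start, 1.282 kb into the record with 170 CpG, had much lower levels, 1.55 and 1.78 with HA-H3.3 and 2.23 and 0.877 with anti-MacroH2A2. At *Igf2* the start 7.327 kb into the record held 116 CpG and no TGCCGC. Its levels were 2.64 and 2.16 with HA-H3.3, 2.94 and 1.69 with anti-MacroH2A2, 1.02 without Dox and 0.925 to 2.00 in the induced HA-Macro libraries.

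At the CpG-richest starts the members' median was 2.48 and 3.80 for HA-H3.3 at 3 h and 6 h, and 3.00 and 1.65 for anti-MacroH2A2 in ES cells and MEFs. The same choice of start over all genes left their medians at 0.775, 0.845, 0.706 and 0.540, and those of protein-coding genes at 1.24, 1.88, 1.06 and 0.607. Members above the median of all genes numbered 10, 9, 10 and 10 of the 10 in these 4 libraries, and 7 to 9 in the 7 HA-Macro libraries. Above the protein-coding median they numbered 10, 8, 9 and 10.

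**Figure D2:**
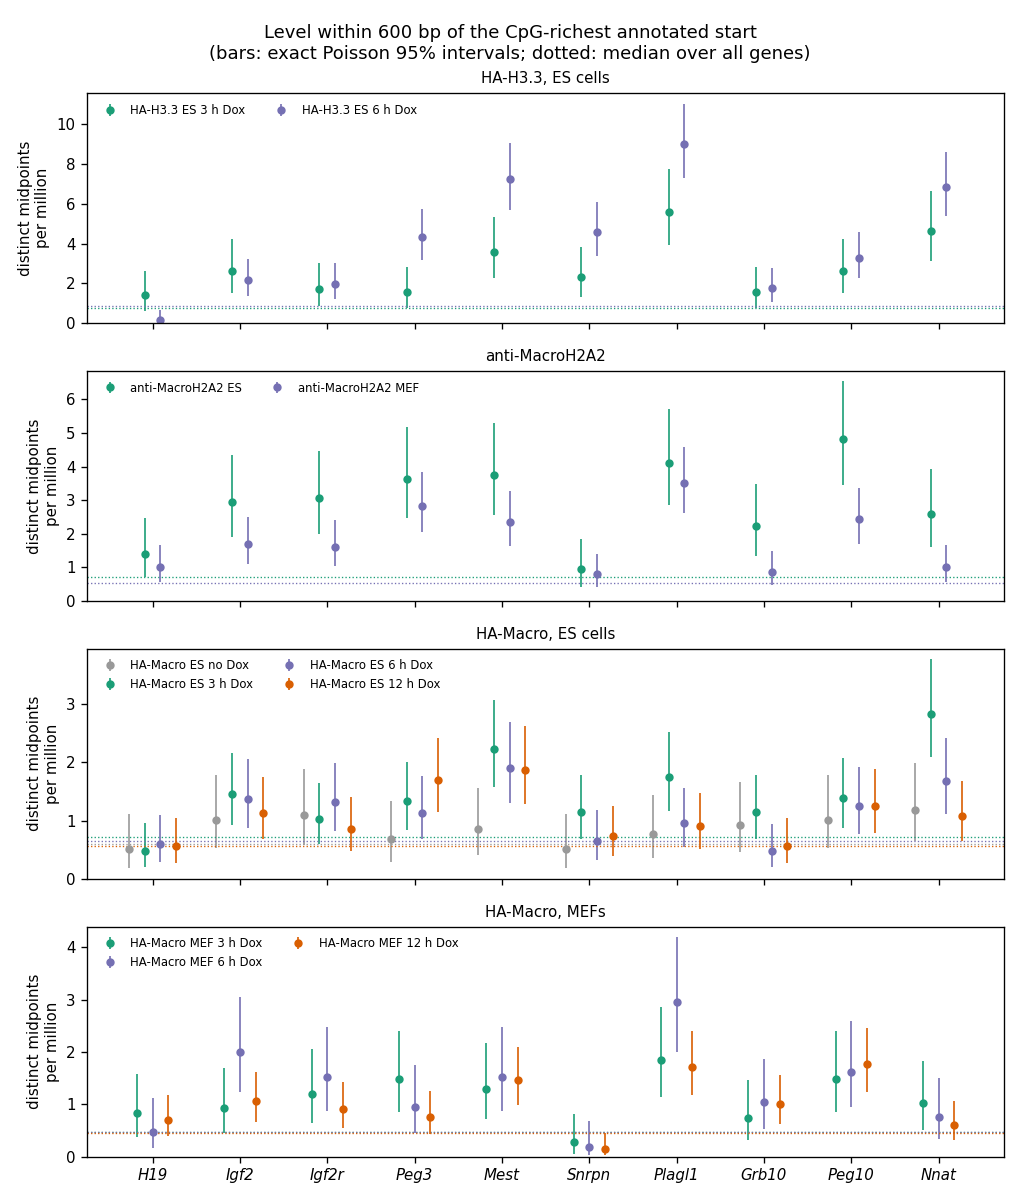
Level within 600 bp of the CpG-richest annotated start of the 10 genes (x axis) in p.p.m. (y axis), in the same 4 panels. Points are single libraries, bars exact Poisson 95% intervals and dotted lines the median over all genes at their own CpG-richest starts. *Mest* and *Snrpn* reach 7.23 and 4.60 with HA-H3.3 at 6 h, and *Snrpn* has 0.941 with anti-MacroH2A2 in ES cells.

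Where in each locus H3.3 was highest was then read from the 1 kb windows. The window richest in HA-H3.3 was chosen in the 6 h library and read in the other libraries. In 9 of the 10 loci it was also the richest, or tied for it, at 3 h, and the *H19* window was the second. On a fixed grid common to all genes, with windows within 50 kb of the gene, the window richest at 6 h was also richest at 3 h for 8 of the 10 genes, against 41.0% of all genes. It lay within 1 kb of an annotated start of the gene for 7 of the 10 (*Peg3*, *Mest*, *Snrpn*, *Plagl1*, *Grb10*, *Peg10* and *Nnat*), against 16.8%. No test was made of these shares, which cover the 30826 genes with 10 or more midpoints in that window. Any annotated start of a gene counted, which favors genes with many starts. *Plagl1*, *Mest*, *Nnat* and *Grb10* have 12, 11, 10 and 9 start positions. On the same grid the window was centred inside the record for 7 of the 10 genes, against 16.2% of all genes, which differ in length, and it held 20 or more CpG for 9, against 58.9%. It held TGCCGC for 9 (all but *Igf2*), against 31.5%, and 3 or more matches for 8 (all but *Igf2* and *Peg10*), against 3.33%. The plots and values below use windows laid out from 50 kb below the lower coordinate of each record. With these, 8 of the 10 held TGCCGC and 6 held 3 or more, and the windows of *H19* and *Igf2* were nearly the same stretch.

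Among the 132596 genomic windows of 1 kb with 20 or more CpG and a midpoint in the no-Dox library, 1.42% held 3 or more TGCCGC. Mean HA-H3.3 at 6 h over such windows was 2.30 p.p.m. with 3 or more matches, 1.34 with 1 or 2, and 1.08 with none. Anti-MacroH2A2 in ES cells moved the same way, with means of 1.40, 0.849 and 0.736. The CTCF core was found in 48.3% of the windows with 3 or more hexamers and 12.5% of those with none, and the 3 classes were not matched for CpG.

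**Figure D3:**
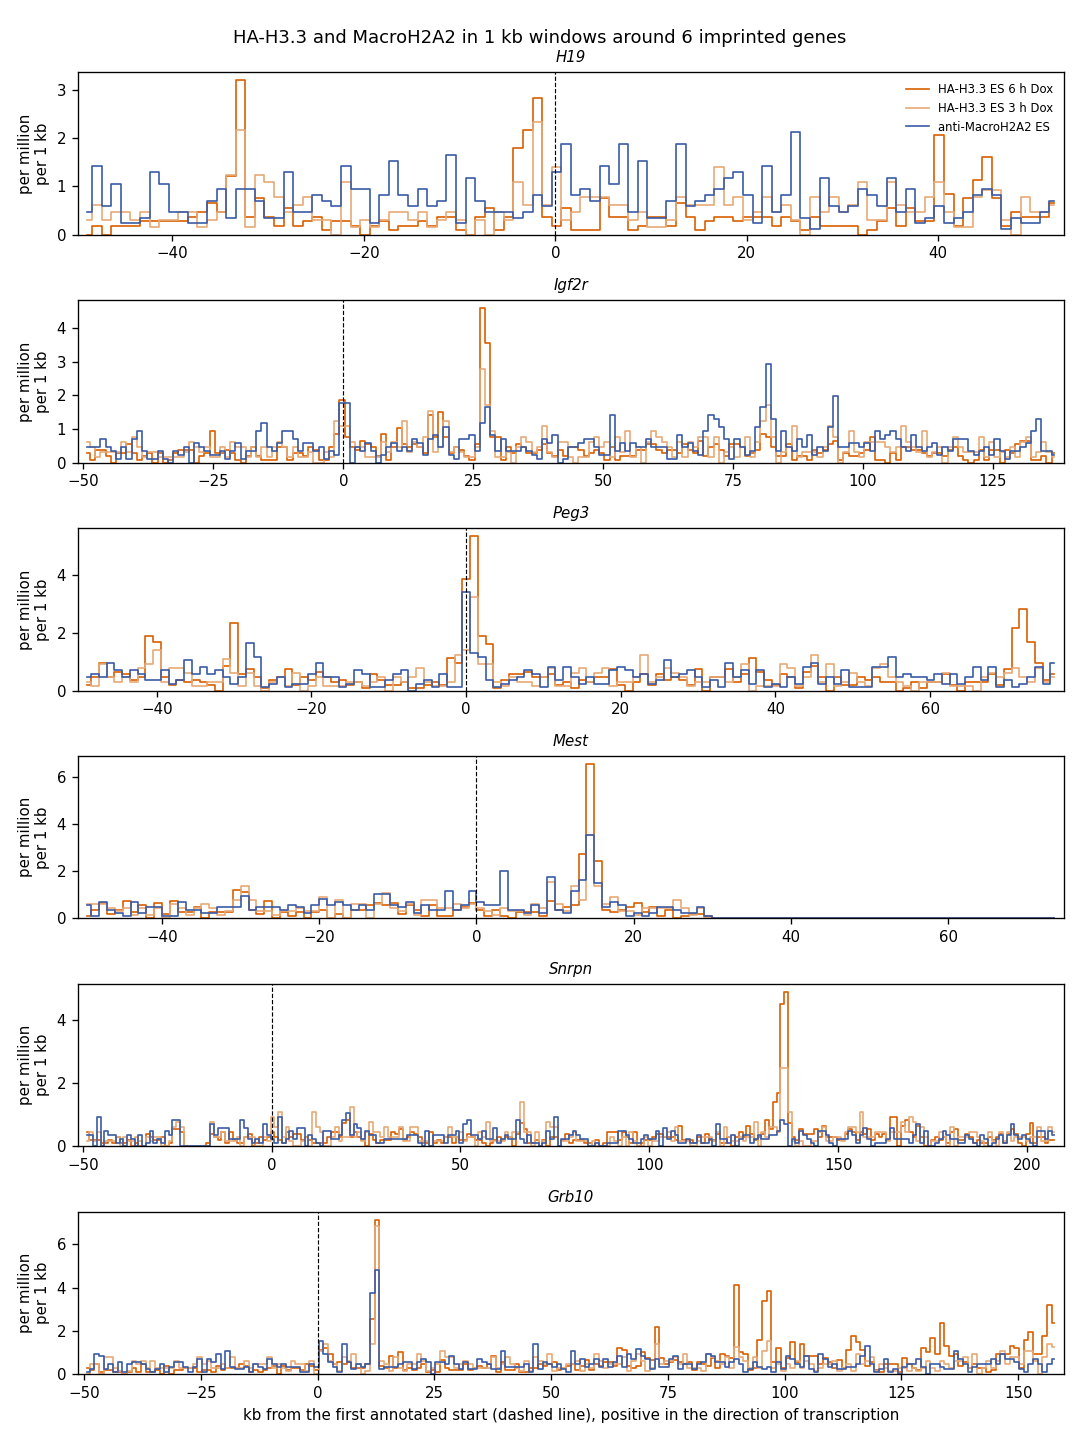
HA-H3.3 at 6 h and 3 h and anti-MacroH2A2 in ES cells in 1 kb windows (y axis, p.p.m.) against the distance in kb from the first annotated start, positive in the direction of transcription (x axis), for *H19*, *Igf2r*, *Peg3*, *Mest*, *Snrpn* and *Grb10*. HA-H3.3 stands in narrow peaks upstream of *H19*, 26.8 kb inside *Igf2r*, 14.5 kb inside *Mest*, 136 kb inside *Snrpn* and 12.7 kb inside *Grb10*; the *Mest* windows from 30.5 kb on are at 0 because they lie in a gap of the assembly.

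*Igf2r* had its H3.3 peak far from its own TSS, 26.8 kb inside the gene, with the start of *Airn*, the paternally expressed noncoding RNA that silences the locus, 1507 bp away. HA-H3.3 in this window was 2.79 at 3 h and 4.60 at 6 h. Anti-MacroH2A2 was 1.18 in ES cells, from 10 midpoints, and 0.135 in MEFs, from 2. HA-Macro was 0.677 without Dox, 0.482, 0.657 and 0.791 in induced ES cells and 0.185, 0.190 and 0.403 in MEFs. The ratio of HA-H3.3 at 3 h to anti-MacroH2A2 in ES cells was 2.37 (1.04 to 5.76), and the anti-MacroH2A2 ratio of ES cells to MEFs was 8.72 (1.86 to 81.8). The neighboring window at 27.8 kb, with 75 CpG and 7 TGCCGC matches, had 1.71 and 3.57 with HA-H3.3 and 1.65 and 0.674 with anti-MacroH2A2. The window of the *Igf2r* locus richest in anti-MacroH2A2 in ES cells lay 81.8 kb into the gene, where anti-MacroH2A2 was 2.94 in ES cells and 1.89 in MEFs and HA-H3.3 was 1.71 at 3 h, the same as in the window at 27.8 kb, and 0.751 at 6 h.

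At *H19* the window 1.89 kb upstream of the TSS, with 30 CpG, 3 TGCCGC and the nearest of the 3 CTCF-core matches printed above, was the richest at 3 h and the second at 6 h. Its HA-H3.3 levels were 2.33 and 2.82, its anti-MacroH2A2 levels 0.823 in ES cells and 0.674 in MEFs, and its HA-Macro levels 0.508 without Dox, 0.422, 0.657 and 0.565 in induced ES cells and 0.370, 0.380 and 1.01 in MEFs. HA-H3.3 at 3 h exceeded anti-MacroH2A2 in ES cells 2.83-fold (1.08 to 8.19). The richest window at 6 h lay 32.9 kb upstream, between *H19* and *Igf2*, with 2.17 and 3.19 for HA-H3.3 and 0.941 for anti-MacroH2A2 in ES cells. It held 15 CpG and neither motif. The *Igf2* locus overlaps that of *H19* and shared this stretch as its own richest window, 55.5 kb downstream of the *Igf2* TSS. Inside *Igf2*, the window 6.55 kb into the gene had 2.48 and 2.54 with HA-H3.3, and was the richest of the locus for anti-MacroH2A2 in ES cells at 2.47, against 0.877 in MEFs (ratio 2.82, 1.35 to 6.12).

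*Peg3* showed the 2 variants in adjoining windows. The window 1.03 kb into the gene, with 4 TGCCGC, had 3.26 and 5.35 with HA-H3.3 but 1.29 with anti-MacroH2A2 in ES cells (ratio at 3 h 2.52, 1.16 to 5.78). The window over the TSS, 0.029 kb into the gene, had 1.40 and 3.85 with HA-H3.3 and 3.41 with anti-MacroH2A2 (ratio 0.409, 0.170 to 0.888). At 6 h the TSS window, at 3.85, was no longer below anti-MacroH2A2. At *Snrpn* the windows 136 and 135 kb into the gene had 2.48 and 2.48 with HA-H3.3 at 3 h and 4.88 and 4.51 at 6 h, against 0.706 and 0.823 with anti-MacroH2A2 in ES cells and 0.877 and 0.809 in MEFs. The 3 h ratios to anti-MacroH2A2 in ES cells were 3.52 (1.31 to 10.97) and 3.01 (1.17 to 8.66). Anti-MacroH2A2 in ES cells over MEFs was 0.805 (0.251 to 2.27) in the first of these windows.

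*Mest*, *Plagl1* and *Grb10* were the 3 loci in which the window richest in HA-H3.3 was also the richest in anti-MacroH2A2 in ES cells. The *Mest* window 14.5 kb into the gene had 3.57 and 6.57 with HA-H3.3 and 3.53 with anti-MacroH2A2, that of *Plagl1* 4.81 and 6.57 against 3.17, and that of *Grb10* 6.82 and 7.14 against 4.82. HA-Macro in ES cells was 2.05, 1.21 and 2.35 in these 3 windows at 3 h, and 1.58, 0.452 and 2.60 at 12 h. Without Dox it was 0.761, 0.508 and 1.95, so the *Plagl1* window at 12 h was below its no-Dox level. *Grb10* had further H3.3 windows of another kind. Those 89.7 and 96.7 kb into the gene held only 10 and 4 CpG and no TGCCGC, with 4.13 and 3.85 for HA-H3.3 at 6 h (1.24 and 1.55 at 3 h) and 0.706 and 0.353 for anti-MacroH2A2 in ES cells. At *Peg10* and *Nnat* the richest window was the one just inside the TSS. The *Peg10* window, beside the start of *Sgce*, the imprinted neighbor transcribed the other way, had 2.79 and 4.41 with HA-H3.3, and 2.94 and 1.21 with anti-MacroH2A2 in ES cells and MEFs (ES over MEF 2.42, 1.27 to 4.71). That of *Nnat* had 3.41 and 4.51 with HA-H3.3, and 1.76 and 0.742 with anti-MacroH2A2 (2.38, 1.02 to 5.72).

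Windows picked for H3.3 tend by that choice to hold more H3.3 than MacroH2A2, so the same was counted over all genes on the fixed grid. There the window richest at 6 h had HA-H3.3 at 3 h above anti-MacroH2A2 in ES cells for 9 of the 10 genes, against 83.6% of all genes. HA-H3.3 at 3 h was above HA-Macro in ES cells, mapped with the same HA antibody, for all 10 at 3 h and all 10 at 6 h, against 85.2% and 86.3%. Anti-MacroH2A2 was higher in ES cells than in MEFs for all 10, against 69.6%, while in the windows laid out from each record it was higher in ES cells in 9 (all but *Snrpn*), with the interval of the ratio above 1 in 4. Between 0.00751% (*Grb10*) and 0.577% (*H19*) of the 2503704 genomic windows of 1 kb with a midpoint in the no-Dox library were as high in HA-H3.3 at 3 h. Each member window was the richest at 6 h of 102 to 257 in its locus, a choice that itself gives low shares. The same range was not taken for the richest windows of all genes.

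**Figure D4:**
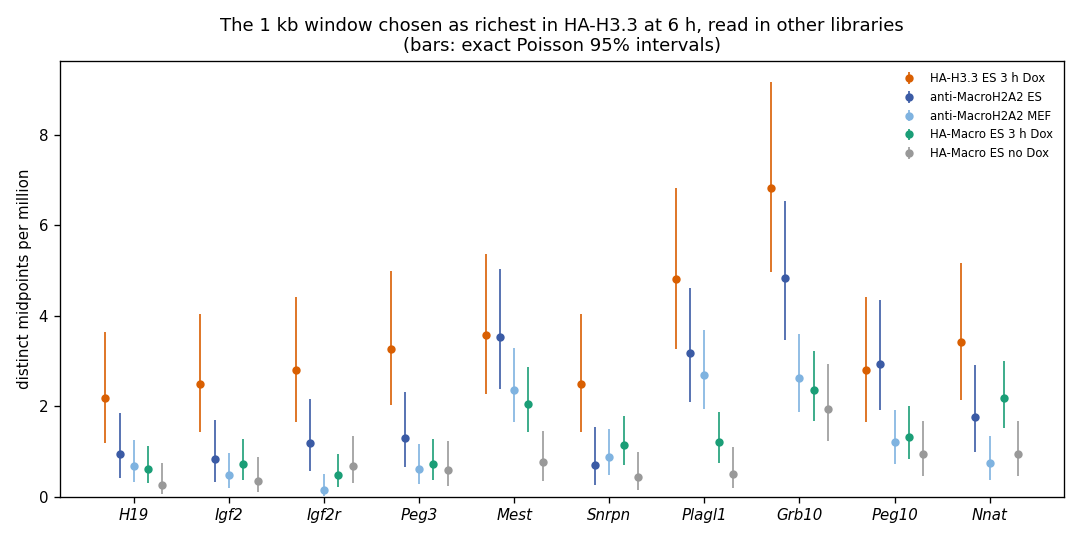
The 1 kb window richest in HA-H3.3 at 6 h in each locus (x axis), read in 5 other libraries in p.p.m. (y axis, points, with exact Poisson 95% intervals as bars). HA-H3.3 at 3 h runs from 2.17 at *H19* to 6.82 at *Grb10*, and anti-MacroH2A2 in ES cells is above it only at *Peg10*.

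Across the windows of a locus, the Pearson correlation of HA-H3.3 at 6 h with 3 h was 0.63 to 0.80 over the 10 loci, and Spearman's rho was lower, 0.29 to 0.46. With anti-MacroH2A2 in ES cells Pearson's r ran from 0.00287 at *H19* to 0.74 at *Mest*, with a median of 0.44, while rho was 0.18 at *Mest* and its median 0.22. Against HA-Macro in ES cells at 3 h Pearson's r was 0.28 to 0.74, and against HA-Macro without Dox 0.0578 to 0.34. Against HA-Macro at 6 h and 12 h it was 0.15 to 0.62 and 0.16 to 0.54. These are descriptions over 80 to 257 windows per locus that share base composition and mappability.

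At the TSS itself HA-H3.3 at 6 h was compared with anti-MacroH2A2 in ES cells on a log2 scale with 1 midpoint added, in genes with 10 or more midpoints in both libraries together, and a gene past 2-fold was counted. Of 8 members tested, *Plagl1* and *Nnat* were past 2-fold toward H3.3, against 41.2% of all genes, and *H19* and *Mest* were past it toward MacroH2A2, against 9.3%. The ratio was 2.23 (1.48 to 3.42) at *Plagl1*, 2.65 (1.63 to 4.49) at *Nnat* and 0.133 (0.0145 to 0.598) at *H19*, where only 2 H3.3 midpoints were seen. At *Mest* it was 0.457 (0.166 to 1.17), and at the CpG-rich *Mest* start the direction turned. The median log2 ratio of the 10 genes was −0.23, against 0.74 over all genes, and −0.05 against 0.70 at the CpG-richest starts. Relative to the all-gene median, 5 of the 8 members (*H19*, *Igf2*, *Igf2r*, *Mest* and *Peg10*) were past 2-fold toward MacroH2A2 and 0 toward H3.3, against 22.4% and 19.9% of all genes. *Peg10* (0.682, 0.422 to 1.10), *Igf2r* (0.645, 0.345 to 1.19) and *Peg3* (1.23, 0.757 to 2.01) had intervals that include 1.

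The anti-MacroH2A2 level was lower in MEFs than in ES cells at 8 of the 10 starts, with the interval of the ratio below 1 at 4, and the median over all genes was lower too. Levels are shares of each library, so more signal elsewhere in the genome lowers them, and they do not compare amounts of MacroH2A2 between the cell types. *Nnat* and *Mest* were past 2-fold lower (2 of 8 tested, against 32.4% of all genes), and none was past 2-fold higher (against 4.08%). *Nnat* had 22 midpoints in ES cells and 15 in the deeper MEF library, a ratio of 0.391 (0.189 to 0.789), and *Mest* had 14 and 7, a ratio of 0.287 (0.0980 to 0.759). At the CpG-richest *Mest* start the ratio was 0.627 (0.377 to 1.05), not past 2-fold, and at that of *Grb10* it was 0.392 (0.178 to 0.838). *Peg10* at 0.504 (0.313 to 0.808) and *Igf2r* at 0.529 (0.291 to 0.959) had intervals below 1 without passing the fold. *Plagl1* (0.817, 0.512 to 1.32), *Peg3* (0.803, 0.491 to 1.33) and *H19* (0.717, 0.313 to 1.68) had intervals that include 1. The members' median became −0.029 on the log2 scale in 1 random draw that thinned all libraries to the smallest, with no all-gene median given at that depth. At full depth it was −0.49 over all 10 members, which include *Snrpn* (−0.48) and *Grb10* (−0.07) although both were under the minimum of 10 midpoints. The all-gene median, −0.63, covers only genes that met that minimum, so the sets are not alike. Of the 10 members, 6 were above it, *Snrpn* and *Grb10* among them, and 4 were below. Relative to that all-gene median, *Mest* alone was past 2-fold lower and none was higher, against 10.6% and 13.9% of all genes.

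With newly made HA-Macro after 12 h of Dox, *Peg3* was lower in MEFs (0.445, 0.223 to 0.854) and *Mest* higher (2.67, 1.27 to 6.13). They were the 1 member past 2-fold lower and the 1 past 2-fold higher among 10 tested, against 20.7% and 6.73% of all genes. Relative to the all-gene median of −0.32 on the log2 scale, 2 members (*Mest* and *Plagl1*) were past 2-fold higher and 0 lower, against 13.3% and 11.1% of all genes. At 3 h *Peg3* was not lower in MEFs (1.48, against 1.33 in ES cells). The *Mest* difference belonged to the upstream start of the record, where 30 midpoints were seen in MEFs and 10 in ES cells, and it was opposite in sign to the anti-MacroH2A2 difference at the same place. The MEF level there was 0.832 at 3 h and 0.761 at 6 h, against 1.51 at 12 h. ES cells had 0.603, 0.418 and 0.565 at these times and 0.508 without Dox, and MEFs without Dox were not among the libraries. At the CpG-rich *Mest* start HA-Macro was 1.46 in MEFs and 1.86 in ES cells. *Snrpn* at its inner start was lower in MEFs, with a ratio of 0.206 (0.0376 to 0.748), from only 3 midpoints in MEFs and 13 in ES cells. With anti-MacroH2A2 the ratio at that start was 0.860 (0.323 to 2.43). *Plagl1* (1.70, 0.977 to 3.03), *Peg10* (1.42, 0.808 to 2.54) and *Nnat* (0.563, 0.249 to 1.22) had intervals that include 1, but at the CpG-richest *Plagl1* start the ratio was 1.89 (1.02 to 3.67). For anti-MacroH2A2 the labelled parental KH2 ES cells and wild type MEFs may differ in origin as well as in cell type, and these cannot be told apart.

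**Figure D5:**
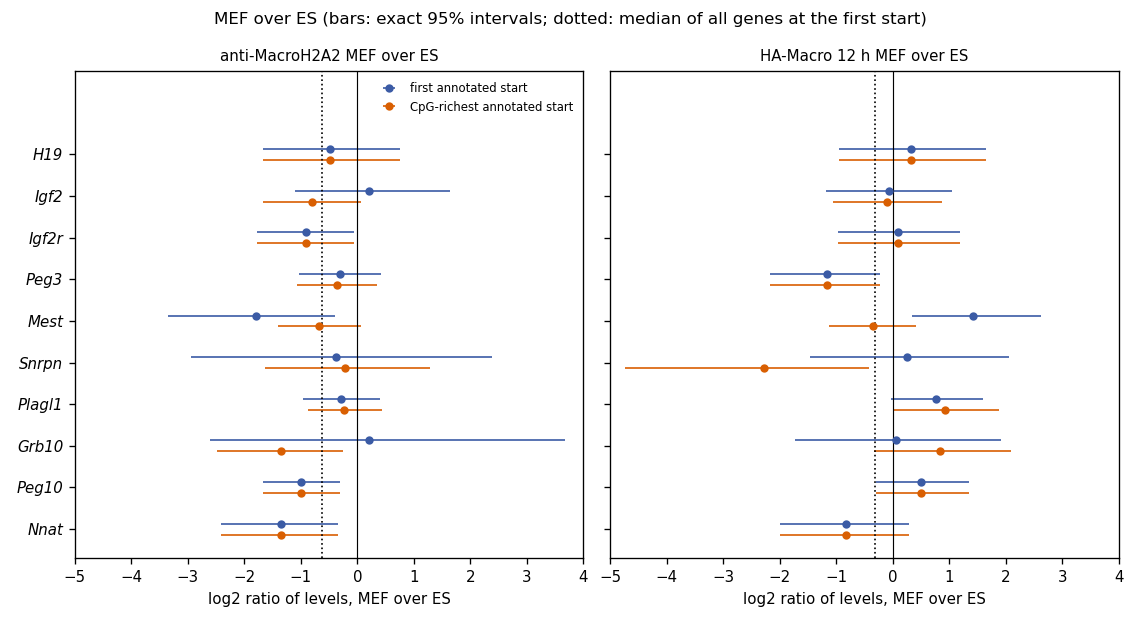
Log2 ratio of the level in MEFs to that in ES cells (x axis) for each gene (y axis), for anti-MacroH2A2 on the left and HA-Macro after 12 h of Dox on the right, at the first and at the CpG-richest annotated start. Bars are exact 95% intervals of the ratio from counting error, and the dotted line is the median of all genes at the first start; with anti-MacroH2A2 the *Nnat*, *Peg10* and *Igf2r* intervals lie below 0 (their 2 starts are the same), as do those of *Mest* at its first and *Grb10* at its CpG-richest start.

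The order in which HA-Macro appeared over time was read in ES cells from 3 h against 12 h, since a place that exchanges MacroH2A2 fast gains its share early. *Nnat* was the 1 member past 2-fold lower at 12 h (ratio 0.379, 0.210 to 0.658, from 47 midpoints at 3 h to 19), against 22.1% of all genes. *Igf2* was the 1 past 2-fold higher (4.68, 1.32 to 25.2), against 6.55%, but rested on 3 midpoints at 3 h, and at its CpG-richest start the direction turned (0.781, 0.409 to 1.48). With the 6 h library in place of the 3 h library neither was past 2-fold, at −0.62 for *Nnat* and 0.01 for *Igf2* on the log2 scale. None of the 10 was past it in that comparison, against 3.98% of all genes higher and 8.85% lower. The members' median was −0.09 for 12 h over 3 h, against −0.33 over all genes, and 0.04 for 12 h over 6 h, against −0.18. Relative to cells without Dox, *Plagl1* (2.21, 1.06 to 5.05) and *Nnat* (2.39, 1.30 to 4.71) were past 2-fold higher at 3 h, against 24.7% of all genes, and *Igf2* was past 2-fold lower (0.306, 0.0510 to 1.34), against 5.64%, with the direction turned at its CpG-richest start (1.43, 0.686 to 3.13). Relative to the all-gene median of 0.44 on the log2 scale, 0 members were past 2-fold higher and *Igf2* lower, against 10.8% and 12.9%. At 6 h the 3 log2 differences from the no-Dox level were 0.36, 0.45 and 0.40, and none of the 9 members tested was past 2-fold in either direction, against 15.2% of all genes higher and 5.3% lower. At 12 h *Peg3* was past 2-fold higher than without Dox (2.51, 1.12 to 6.32), against 11.9%, and none was past 2-fold lower, against 7.62%.

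In MEFs, 12 h against 3 h gave no member past 2-fold higher, against 4.36% of all genes. *Grb10* was past 2-fold lower, against 10.9%, with 8 midpoints at 3 h (0.740 p.p.m.) and 7 at 12 h (0.352), but at its CpG-richest start the direction turned (1.36, 0.574 to 3.57). No interval of the 10 ratios excluded 1. For HA-H3.3 in ES cells, 6 h against 3 h, *Peg3* was past 2-fold higher (2.79, 1.39 to 6.19), against 19.5% of all genes. *H19* (0.135, 0.0142 to 0.650) and *Igf2* (0.433, 0.108 to 1.58) were past 2-fold lower, against 3.99%. *Plagl1* did not pass the fold, with a ratio of 1.59 (1.07 to 2.42). Relative to the all-gene median of 0.47 on the log2 scale, 0 members were past 2-fold higher and 3 (*H19*, *Igf2* and *Snrpn*) lower, against 5.92% and 10.2% of all genes. At the CpG-richest starts *Igf2* was not past 2-fold (0.819, 0.419 to 1.63), and *Snrpn* was higher at 6 h (1.98, 1.09 to 3.80).

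Gene bodies hold more midpoints and gave narrower intervals. In anti-MacroH2A2 all 10 bodies were lower in MEFs than in ES cells, with a median of −0.26 on the log2 scale against −0.36 over all genes, and *Nnat* alone was past 2-fold lower (0.450, 0.267 to 0.751), against 9.61% of all genes. *Peg10* (0.645, 0.501 to 0.832), *Igf2r* (0.780, 0.690 to 0.883) and *Grb10* (0.847, 0.758 to 0.947) had intervals below 1. With HA-Macro at 12 h the median was −0.22 against −0.37 over all genes. The *Igf2r* body was higher in MEFs (1.32, 1.19 to 1.45), opposite to anti-MacroH2A2, while *Nnat* (0.500, 0.286 to 0.853), *Peg3* (0.675, 0.554 to 0.820), *Snrpn* (0.747, 0.671 to 0.832), *Igf2* (0.796, 0.665 to 0.953) and *Plagl1* (0.835, 0.718 to 0.970) were lower. Of these 5, *Igf2* and *Plagl1* were above the all-gene median. The *Igf2r* body level per kb with HA-Macro was 0.541 p.p.m. in MEFs and 0.596 in ES cells at 3 h, the other direction, and 0.580 and 0.423 at 6 h. From 3 h to 12 h in ES cells *Nnat* was the 1 body past 2-fold lower (0.457, 0.307 to 0.672), against 13.7% of all genes, with body levels per kb of 2.07, 1.29 and 0.948 p.p.m. at 3, 6 and 12 h and 0.934 without Dox. The short *Nnat* body overlaps its TSS window, so these are not separate measurements. Intervals also excluded 1 for the bodies of *Igf2r* (0.756, 0.683 to 0.836), *Snrpn* (0.797, 0.722 to 0.880) and *Grb10* (0.894, 0.815 to 0.982), lower at 12 h. Those of *Igf2* (1.24, 1.03 to 1.50) and *Plagl1* (1.18, 1.01 to 1.38) were higher at 12 h. For 12 h over 3 h the median over all genes was −0.12 on the log2 scale. These changes rest on the 3 h library that stood apart. Body levels per kb at 3, 6 and 12 h were 0.596, 0.423 and 0.451 for *Igf2r*, and 0.427, 0.576 and 0.504 for *Plagl1*. From 6 h to 12 h both thus moved the other way. *Igf2* had 0.748, 0.934 and 0.926, with no rise after 6 h. *Snrpn* (0.337, 0.296 and 0.268) and *Grb10* (0.516, 0.527 and 0.462) were lower at 12 h than at 6 h too. HA-H3.3 at 6 h was below anti-MacroH2A2, with an interval under 1, over the bodies of *H19* (0.228, 0.0899 to 0.514), *Igf2* (0.740, 0.594 to 0.921) and *Igf2r* (0.863, 0.757 to 0.983). It was above, with an interval over 1, over those of *Nnat* (1.97, 1.33 to 2.96), *Plagl1* (1.39, 1.16 to 1.67), *Peg3* (1.25, 1.01 to 1.55), *Grb10* (1.21, 1.08 to 1.35) and *Snrpn* (1.19, 1.04 to 1.35). The members' median was 0.14 on the log2 scale against 0.19 over all genes, 5 of the 10 were above the latter, and 51.9% to 55.0% of all genes had a lower ratio than *Snrpn*, *Grb10* and *Peg3*.

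A list of 57 further imprinted genes gave 51 with a record in the annotation, for the same comparisons at their first starts. In anti-MacroH2A2, 12 of 48 tested were past 2-fold lower in MEFs and 1 was higher, against 32.4% and 4.08% of all genes. Those with 20 or more midpoints and the largest differences were *Zrsr1*, a paternally expressed splicing factor gene (3.06 in ES cells and 0.944 in MEFs), *Ube3a*, the ubiquitin ligase gene of the *Snrpn* domain (2.35 and 0.742), *Trappc9* (1.76 and 0.540), *Atp10a* (1.53 and 0.607) and *Nespas*, the antisense RNA of the *Gnas* locus (2.94 and 1.28). The higher one was *Magel2*, a paternally expressed gene also in the *Snrpn* domain (0.706 and 1.96). Relative to the all-gene median of −0.63 on the log2 scale, 3 of 48 were past 2-fold lower (*Calcr*, *Zrsr1* and *Trappc9*) and 8 higher, against 10.6% and 13.9% of all genes. On that scale *Ube3a*, *Atp10a* and *Nespas* were not past 2-fold. With HA-Macro at 12 h, 4 of 51 were past 2-fold lower in MEFs and 6 were higher, against 20.7% and 6.73% of all genes. Relative to the all-gene median these counts were 3 and 10, against 11.1% and 13.3%. For HA-Macro in ES cells, 7 of 51 were past 2-fold lower at 12 h than at 3 h and 2 were higher, against 22.1% and 6.55% of all genes. With the 6 h library in place of the 3 h library, 0 of 50 were lower and 2 higher (*Meg3* and *Rian*), against 8.85% and 3.98%. The lower ones included *Tssc4* (1.93 at 3 h and 0.396 at 12 h), *Mcts2* (1.63 and 0.509), *Commd1* (1.15 and 0.396), *Cd81* (2.77 and 1.24) and *Nap1l5* (2.35 and 1.07). For HA-H3.3 at 6 h against anti-MacroH2A2 in ES cells, 14 of 45 tested were past 2-fold toward H3.3 and 2 toward MacroH2A2, against 41.2% and 9.3% of all genes. The largest was *Nap1l5*, a paternally expressed gene, with 18.8 against 1.53 (12.3-fold, 7.02 to 23.5). *Mcts2* had 8.36 against 1.06 (7.90-fold, 3.98 to 17.8), *Zrsr1* 11.7 against 3.06, and *Airn* 2.16 against 0.470. These 4 were named after their values were seen. In the same comparison relative to the all-gene median of 0.74 on the log2 scale, 10 of 45 were past 2-fold toward H3.3. Toward MacroH2A2 there were 9, and the shares of all genes were 19.9% and 22.4%.

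The genes whose TSS levels over the 11 libraries were most like the median pattern of the 10 members, among 3643 genes with 200 or more midpoints, were *Bik* (Pearson r = 0.97), *Sgce* (0.97), *Gm1614* (0.95), *Caskin1* (0.95) and *Ptchd2* (0.95). *Sgce* starts beside *Peg10* and shares midpoints with it. Of the members, *Peg10* was closest to that median pattern (0.97), followed by *Igf2r* (0.85), *Plagl1* (0.84) and *Peg3* (0.78), and *Grb10* was furthest (0.0493). *Grb10* had only 50 midpoints at its first start over the 11 libraries, and *Snrpn* 50, *H19* 99, *Igf2* 109, *Mest* 115 and *Igf2r* 196 were also under the minimum of 200.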

How the data were processed

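ChIP-Seq intervals of 11 libraries from mouse ES cells and MEFs were used. Per the labels and the study's methods, the authors aligned reads to mm9 with Bowtie 1.0 with 1 mismatch allowed, placed reads with several matches at 1 of them at random, and extended each read, and the deposited files list 1 interval per read (chromosome, start, end), with no normalization, score or count column. The numbers of intervals were 6488112 to 20541627 per library. Intervals on chromosomes 1 to 19, X and Y were kept, identical intervals were counted once (0.462% to 6.00% were repeats), and midpoints were counted in windows of GENCODE vM1 genes and scaled to 1000000 distinct intervals. Counts of the 11 libraries were compared with exact Poisson intervals for levels and exact conditional intervals for ratios, at 95%. With 1 library per condition no test was made. Across all genes, log2 ratios had 1 read added, needed 10 reads in both libraries together, and were called past 2-fold. The members' medians cover all 10 genes, also those under that minimum. Motifs and CpG were read from the mm9 genome. The counting scripts were tested on simulated data. The tools were Python 3.11.15, numpy 2.4.6, pandas 2.3.3, scipy 1.17.1 and matplotlib 3.10.9.

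The 10 genes and the further imprinted list were chosen with earlier results of these data known. All 10 were named, and from the list up to 5 per direction past 2-fold with 20 or more reads in anti-MacroH2A2 MEF over ES or HA-Macro ES 12 h over 3 h, genes over a member or its H3.3-richest window, and the 5 genes most like the members' median pattern. The labels and the study's text differ on the line and the Dox state of the anti-MacroH2A2 cells, and the labels were followed. Alternatives are given at the end: other window sizes, added reads, minimum reads, normalizations, removal of repeats, other starts and other time points. The counts over all genes relative to their median, those of 12 h over 6 h in the further genes and the comparisons between variants and the motif counts on the fixed grid were added after the data were seen.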

Additional observations from a re-analysis of the deposited data

How the results depend on the processing

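Of 106 alternative values of the members' medians, 104 lay between the second-lowest and the second-highest member of the main comparison, a wide range. The exceptions were in anti-MacroH2A2, MEF over ES at the TSS. The median log2 ratio of −0.49 there became −0.029 in 1 random draw that thinned all libraries to the smallest, and 0.14 relative to the median of all genes. The members' value includes *Snrpn* and *Grb10*, which were under the 10 reads required for the all-gene median. Of 1060 values for single genes, 1036 were counted as the same, 15 as moved and 9 as reversed. A value not counted as reversed could still change in sign or size. At the CpG-richest start *Snrpn* in HA-H3.3 6 h over 3 h went from −0.72 to 0.92 and is not among the 9. Its main ratio had a wide interval (0.162 to 2.27). *Grb10* in anti-MacroH2A2 MEF over ES went from −0.07 to −1.32, past 2-fold lower, and is not among the 9 either. The reversals came mostly from reading another start of the gene: at the CpG-richest start, a choice added after the data were seen, *Grb10* in MEFs at 12 h over 3 h was 0.34, *Igf2* in ES cells at 12 h over 3 h was −0.35 and at 3 h over no Dox 0.46, *Mest* for H3.3 over anti-MacroH2A2 was 0.92 and for HA-Macro MEF over ES −0.35. With the mean over all annotated starts, *Igf2* at 3 h over no Dox was 0.85 and *Mest* was 0.52 and −0.14 in the same 2 comparisons. With the 6 h library in place of 3 h, *Igf2* over no Dox was 0.40; the cause was not tested. Of 260 counts and shares, 71 moved by over 1.5 times. The share of all genes past 2-fold moved with the minimum of reads: at 20 or more reads it was 4.07% higher for ES 12 h over 3 h, 1.74% higher for anti-MacroH2A2 MEF over ES, and for the lower side 0.589% for H3.3 6 h over 3 h, 4.23% for H3.3 over anti-MacroH2A2, 2.86% and 0.979% for 12 h and 3 h over no Dox and 4.66% for MEF 12 h over 3 h. Over protein-coding genes alone, at the usual minimum, 2.53% were higher for anti-MacroH2A2 MEF over ES. With no minimum the lower shares were 13.3% for H3.3 6 h over 3 h and 15.4% for H3.3 over anti-MacroH2A2. No paired analysis was possible because each condition has 1 library. Depth limits single genes: at 3 reads the level is 0.151 to 0.465 p.p.m., and genes such as *Snrpn* and *Grb10* at their first starts lie at or near it.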
